A study of Mus musculus with 12 samples.

Results

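The IL-6 family genes described here were 10 of the 40760 genes in the deposited tables, taken by their gene symbols and not by their values. They comprised the cytokines Il6, Il11, Lif and Osm, the receptor chains Il6ra, Il11ra1, Lifr and Osmr, the shared receptor chain Il6st, and the inhibitor Socs3. RNA-seq was performed on Cd140a+ (Pdgfra+) cells sorted by flow cytometry from the lungs of male C57BL/6 mice, in 12 libraries. The 4 groups of 3 libraries were wild-type mice given vehicle (WT vehicle), mice labelled Pear1-/- given vehicle, wild-type mice given bleomycin (WT bleo), and mice labelled Pear1-/- given bleomycin. Bleomycin (bleo) injures the lung and is used to produce fibrosis in mice, and Pear1 encodes a cell surface receptor. Per the study's methods, the mice were 8 to 12 weeks old, bleo was given as an aerosol into the trachea at 1.5 or 2 µg per g body weight, and lungs were examined on day 21. The dose, the day and the number of mice behind each of these 12 libraries are not given in the sources used here. The Pear1-/- allele was of the knockout-first kind, in which a cassette in an intron traps the transcript in every cell of the mouse.

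The 4 cytokines described here signal through gp130, the receptor chain encoded by Il6st. IL-6 and IL-11 first bind chains of their own, encoded by Il6ra and Il11ra1, which hold the cytokine and do not signal themselves. LIF and oncostatin M (the product of Osm) bring gp130 together with the signalling chains encoded by Lifr and Osmr. The kinases bound to these chains, JAK1, JAK2 and TYK2, activate the transcription factor STAT3, and STAT3 induces Socs3, whose product binds gp130 and shuts the signal off. In the lung, fibroblasts both make and respond to several of these cytokines, which are studied as drivers of inflammation and scarring.

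Socs3 is the family's own read-out of STAT3, so a stretch upstream of its coding transcript is shown. RefSeq windows of 250 bases before the annotated start (GRCm38.p6) were at hand for 9 of the 10 genes, 12 windows in all. The motif TTCNNNGAA, in the form that STAT factors bind, reads the same on both strands. It was found in 1 of the 12 windows, that of Socs3, and in 7.02% of all 32851 windows. The stretch below is chr11:117969452-117969616 on the minus strand, written 5′ to 3′ with the motif match in capitals.
Socs3 upstream: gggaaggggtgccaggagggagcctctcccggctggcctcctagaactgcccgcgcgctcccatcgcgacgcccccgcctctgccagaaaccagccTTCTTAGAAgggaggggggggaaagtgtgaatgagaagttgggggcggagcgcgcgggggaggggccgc
The match begins 334 bases before the first base of the coding transcript Socs3-201 of GENCODE, and it lies in no annotated exon. The stretch is upstream of the RefSeq start and of Socs3-201, but inside the annotated gene, in an intron of a longer transcript. The part of the window from 117969375 to 117969451, an exon of Socs3-203, was left out. A match of letters is not a binding site, and no factor was measured here.

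The libraries held between 6702948 and 10447101 counted reads, so that 3 counts, taken as the floor of detection, stood for 0.287 to 0.448 CPM, the count scaled to library size. A floor of this kind covers counting error only. In a chi-square test of counts between libraries of a group, per degree of freedom, values lay between 1.35 and 4.82 for 10 of the 12 pairs, where 1 is counting noise alone. WT vehicle replicate 2 stood apart, at 21.2 and 21.8 from replicates 1 and 3. It had 29845 genes with a count, against 35472 and 35884 in replicates 1 and 3 and 27702 to 29425 in the libraries labelled Pear1-/- vehicle. Nothing says that the libraries of a group came from separate mice, so p-values measure the spread between these libraries, which may be technical. The targeted gene Pear1 had 576, 545 and 519 normalized counts (deposited counts divided by the authors' size factors) in WT vehicle and 511, 501 and 547 in the libraries labelled Pear1-/- vehicle, and these overlapped. In bleo it had 256, 239 and 266 in WT and 355, 372 and 344 in the libraries labelled Pear1-/-, which were higher. Counts over the whole gene do not separate a trapped transcript from a complete one, so they did not check the genotype labels, and each genotype below is the label as deposited.

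Pdgfra, the gene of the sorting marker, was present in every library, with 1338 normalized counts in the lowest and 4802 in the highest. So was Ptprc, which encodes the leukocyte antigen CD45, with 3010.0 to 7727. The 12 myeloid markers (macrophage and monocyte genes) summed to 17813 to 23365 normalized counts in WT vehicle, 22769 to 24788 in libraries labelled Pear1-/- vehicle, 121953 to 123595 in WT bleo and 55220 to 56853 in libraries labelled Pear1-/- bleo. Of these 12, 11 rose with bleo in each genotype, by a median of 2.76 (WT) and 1.40 (labelled Pear1-/-) on the log2 scale, and 11 were lower in the bleo libraries labelled Pear1-/- than in WT ones (median -1.19). The 12 fibroblast markers summed to 153717 to 172241 in WT vehicle, 170667 to 177311 in libraries labelled Pear1-/- vehicle, 113275 to 114412 in WT bleo and 291504 to 301106 in libraries labelled Pear1-/- bleo, where 6 of the 12 were higher and 2 lower than in WT bleo. The 6 pericyte and smooth muscle markers summed to 1777 to 2089.5 in WT vehicle, 1785 to 1976 in libraries labelled Pear1-/- vehicle, 1384 to 1412 in WT bleo and 3834 to 4062 in libraries labelled Pear1-/- bleo. Both sums were lowest in WT bleo and highest in libraries labelled Pear1-/- bleo, as Il11 and Osmr were, but most markers did not follow the sums. With bleo in libraries labelled Pear1-/-, 8 of the 12 fibroblast markers fell and 4 rose (median -0.92). Of the 6 pericyte and smooth muscle markers, 3 fell and 2 rose there (median -0.20). Of the 10 epithelial markers, 8 fell with bleo in each genotype. Of all 9 marker lists no defining gene was at 0 in every library of a group, and Ly6g and Mpo, neutrophil genes, did not exceed 3 counts in WT bleo. These markers moved with bleo and with the genotype label together with the genes below, and their part in each result was not tested. Genes with immunoglobulin symbols held 8.46% to 13.9% of the counts in vehicle libraries. They held 1.80% to 1.83% in WT bleo and 7.12% to 7.17% in libraries labelled Pear1-/- bleo. Genes with a count numbered 21621 to 22422 in the bleo libraries. The part of these shifts was not tested either. In sorted bulk RNA, fewer cells of a type and less RNA per cell cannot be told apart.

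The comparisons asked how bleo changed each gene in each genotype, whether the genotype label mattered in bleo, and whether it changed the response to bleo. The edgeR quasi-likelihood test over 17418 genes gave the log2 fold changes, their standard errors (SE) and the adjusted p, and a gene was called when its adjusted p was under 0.05. Between WT bleo and WT vehicle all 10 genes were called, 5 higher and 5 lower, where 67.9% of all genes tested were called, and 3 of the 10 also passed a fold change of 2, as did 33.8% of all genes. Among libraries labelled Pear1-/-, 8 of 10 genes were called between bleo and vehicle, 4 higher and 4 lower (62.2% of all genes), 3 of them past a fold change of 2 (27.7%). Between the genotypes in bleo 8 of 10 were called, 4 higher and 4 lower (46.1%), and 1 passed a fold change of 2 (15% of all genes). With backgrounds this high, the counts were not read as a property of the family, and the description below gives the size and direction of each gene's difference. The median log2 fold change of the 10 genes was -0.12, -0.06 and -0.13 in these 3 comparisons, against -0.07, -0.05 and -0.01 over all genes tested. Rises and falls below are of counts scaled by library, unless a ratio is named. Pdgfra itself had a log2 fold change with bleo of -1.74 in WT (SE 0.0660, adjusted p = 4.53e-14). Per 1000 counts of Pdgfra, the 5 genes called lower in WT, Il6, Il11, Il6st, Il11ra1 and Osmr, were each higher with bleo.

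**Figure D1:**
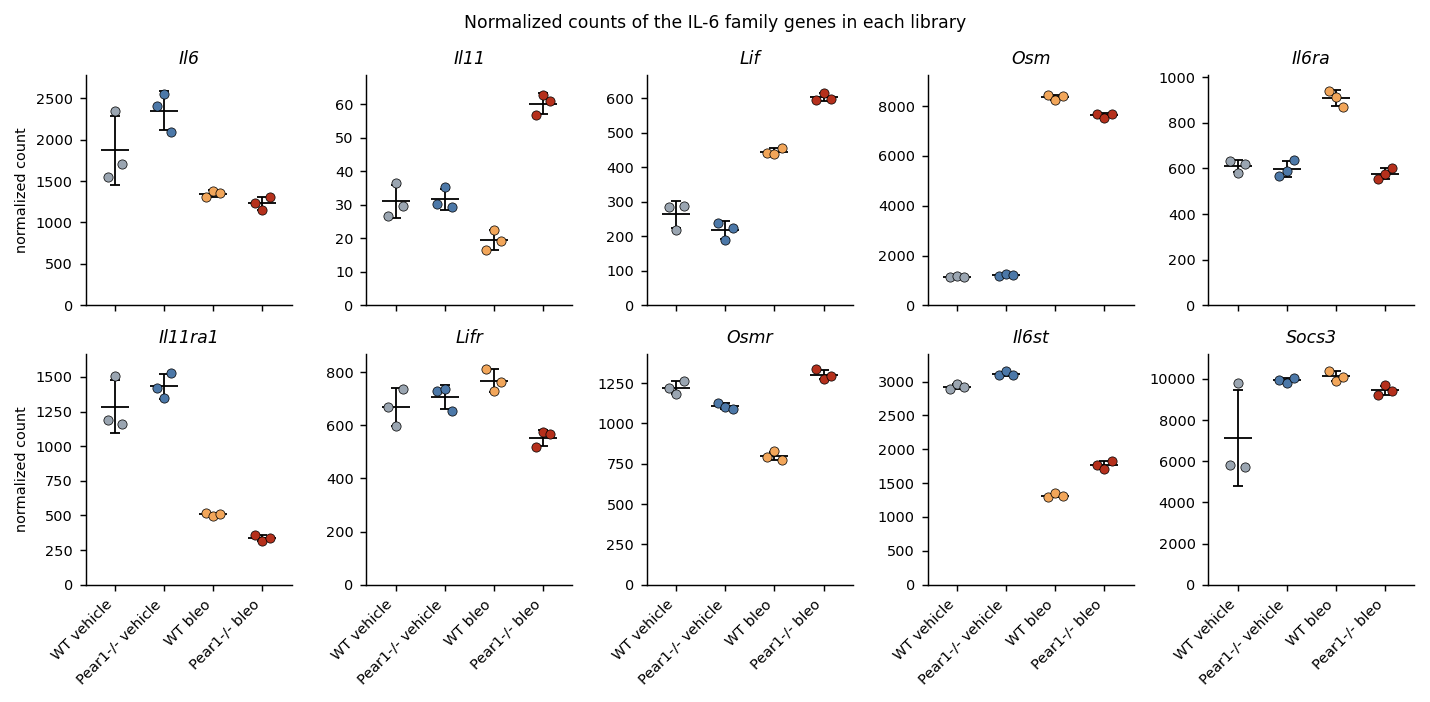
Normalized counts (y axis, from 0) of each of the 10 genes in each of the 12 libraries, by group (x axis); points are libraries, the long bar is the mean and the whiskers the SD of 3 libraries. Osm lies far higher in bleo, Il11 is highest in the libraries labelled Pear1-/- bleo, and 1 WT vehicle library of Socs3 sits with the other groups.

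Among the cytokines, Osm changed most with bleo. Oncostatin M is made mainly by myeloid cells and acts on fibroblasts and other structural cells. Osm (ENSMUSG00000058755, GRCm38 chromosome 11, 4236420 to 4241026, the build of all positions here) had 1122, 1159.8 and 1121 normalized counts in WT vehicle and 1188, 1264 and 1223 in the libraries labelled Pear1-/- vehicle. It had 8441, 8237 and 8389.7 in WT bleo and 7695, 7526 and 7678 in the libraries labelled Pear1-/- bleo. Every bleo library lay far above every vehicle library. The log2 fold change with bleo was 2.89 in WT (SE 0.0585, adjusted p = 1.22e-17), a 7.43-fold rise, and 2.64 in the libraries labelled Pear1-/- (SE 0.0583, adjusted p = 9.62e-17), a 6.25-fold rise. Between the bleo groups the difference was -0.14 (SE 0.0576, adjusted p = 0.0485), and leaving out any 1 of the 6 libraries gave adjusted p between 0.130 and 0.204 and with limma 0.112.

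Osm and the myeloid markers rose together with bleo. The summed myeloid markers averaged 19845 normalized counts in WT vehicle and 122720.0 in WT bleo, and 23476 and 55822 in the libraries labelled Pear1-/-, beside rises of Osm of 7.43-fold and 6.25-fold. Per 1000 counts of Ptprc, Osm had 347 ± 40.3 counts (SD, n = 3) in WT vehicle, 322 ± 25.8 in libraries labelled Pear1-/- vehicle, 1097 ± 27.2 in WT bleo and 2269 ± 46.7 in libraries labelled Pear1-/- bleo. Ptprc itself rose with bleo in WT by 1.22 on the log2 scale (SE 0.0824, adjusted p = 2.21e-10) and differed by -0.18 in the libraries labelled Pear1-/- (adjusted p = 0.0677). In bleo Ptprc was lower in libraries labelled Pear1-/- (log2 fold change -1.19, adjusted p = 9.33e-10), against -0.14 for Osm. Per 1000 counts of Pdgfra the order of the bleo groups was the opposite, with 6145 ± 122 Osm counts in WT bleo and 3192 ± 14.1 in libraries labelled Pear1-/- bleo, against 249.5 ± 23.5 in WT vehicle and 294 ± 7.97 in libraries labelled Pear1-/- vehicle (SD, n = 3).

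**Figure D2:**
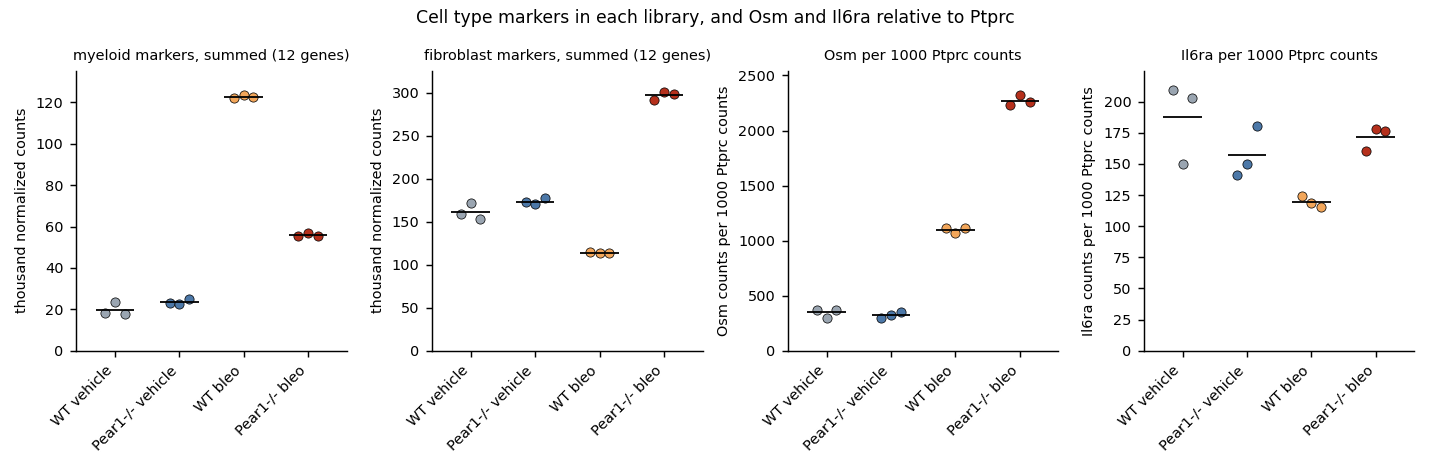
Per library and group, the summed normalized counts of 12 myeloid and of 12 fibroblast markers (in units of 1000), and the counts of Osm and Il6ra per 1000 counts of Ptprc; points are libraries and bars means of 3, and each y axis starts at 0. The myeloid sum is highest in WT bleo, and the fibroblast sum and Osm per Ptprc are highest in the libraries labelled Pear1-/- bleo.

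In normalized counts, Il11 moved in opposite directions with bleo in the 2 genotypes. IL-11 is a product of fibroblasts exposed to TGFβ. Il11 (ENSMUSG00000004371, chromosome 7, 4772373 to 4782859) was the least abundant of the 10, with 26.7, 36.5 and 29.8 normalized counts in WT vehicle, 30.3, 35.3 and 29.5 in libraries labelled Pear1-/- vehicle, 16.5, 22.4 and 19.2 in WT bleo, and 56.8, 62.7 and 61.0 in libraries labelled Pear1-/- bleo. The libraries labelled Pear1-/- bleo lay above all others. Between the bleo groups the log2 fold change was 1.62 (SE 0.223, adjusted p = 5.51e-06), a 3.07-fold difference, and no other of the 10 passed a fold change of 2 there. With bleo it rose by 0.92 in libraries labelled Pear1-/- (SE 0.204, adjusted p = 0.000619) and fell by 0.67 in WT (SE 0.242, adjusted p = 0.0184). The fall in WT was lost without WT vehicle replicate 2 (-0.47, adjusted p = 0.133), without WT bleo replicate 1 (adjusted p = 0.0961) and without WT bleo replicate 3 (adjusted p = 0.0534). Per 1000 counts of Pdgfra, Il11 had 6.87 ± 1.64 counts in WT vehicle and 14.3 ± 2.29 in WT bleo (SD, n = 3). In libraries labelled Pear1-/- it had 7.60 ± 0.684 in vehicle and 25.2 ± 1.43 in bleo. On that scale Il11 was higher with bleo in both genotypes. Per 1000 counts of Ptprc it had 9.37 in WT vehicle, 2.55 in WT bleo, and 8.31 and 17.9 in libraries labelled Pear1-/-.

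Lif rose with bleo in both genotypes. LIF holds stem cells and tissue progenitors in their state and is released by stressed stromal cells. Lif (ENSMUSG00000034394, chromosome 11, 4257557 to 4272514) had 285, 219 and 288 normalized counts in WT vehicle, 239, 188 and 225 in libraries labelled Pear1-/- vehicle, 443, 439 and 456 in WT bleo, and 595, 615 and 597 in libraries labelled Pear1-/- bleo. The bleo groups overlapped neither the vehicle groups nor each other. On the log2 scale Lif rose by 0.77 in WT (SE 0.103, adjusted p = 2.69e-06) and 1.48 in libraries labelled Pear1-/- (SE 0.102, adjusted p = 4.05e-10), and it differed by 0.42 between the bleo groups (SE 0.0968, adjusted p = 0.00144).

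Il6 fell with bleo in both genotypes. IL-6 is an inflammatory cytokine of macrophages and fibroblasts alike. Il6 (ENSMUSG00000025746, chromosome 5, 30013114 to 30019981) had 1555, 2344 and 1712 normalized counts in WT vehicle, 2400.4, 2551 and 2095 in libraries labelled Pear1-/- vehicle, 1305, 1379 and 1362 in WT bleo, and 1235, 1150.1 and 1303 in libraries labelled Pear1-/- bleo. Every bleo library was below every vehicle library, and WT vehicle replicate 2 lay inside the range of the libraries labelled Pear1-/- vehicle. With bleo the log2 fold change was -0.46 in WT (SE 0.117, adjusted p = 0.00233) and -0.93 in libraries labelled Pear1-/- (SE 0.116, adjusted p = 3.67e-06). In WT it was -0.20 without WT vehicle replicate 2 and -0.78 with that library as the only WT vehicle library, a fit in which the other groups give the spread and the lone library is assumed to vary like them. Between the bleo groups Il6 differed by -0.15 (SE 0.117, adjusted p = 0.324), which was not called with all 12 libraries in the fit and was called with only those 6 (adjusted p = 0.00139).

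Among the receptor chains that pair with a single cytokine, Il11ra1 fell most. Il11ra1 (ENSMUSG00000073889, chromosome 4, 41699989 to 41769474) encodes the chain that binds IL-11 and is expressed in stromal cells. It had 1186, 1506 and 1161 normalized counts in WT vehicle, 1418, 1352 and 1527 in libraries labelled Pear1-/- vehicle, 517, 497 and 511 in WT bleo, and 356, 319 and 336 in libraries labelled Pear1-/- bleo. The 3 levels, vehicle, WT bleo and labelled Pear1-/- bleo, did not overlap. With bleo the log2 fold change was -1.33 in WT (SE 0.0895, adjusted p = 2.01e-10) and -2.08 in libraries labelled Pear1-/- (SE 0.0906, adjusted p = 5.11e-13), and -0.61 between the bleo groups (SE 0.0930, adjusted p = 2.65e-05). Near-identical copies could take reads from this gene, and the listed copy Il11ra2 had at most 6 counts in any library.

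Il6ra rose with bleo in WT and was not called in libraries labelled Pear1-/-, a difference whose own test is given with the interaction below. The IL-6 receptor chain is made by leukocytes and hepatocytes and, when shed from their surface, lets IL-6 act on cells that lack it. Il6ra (ENSMUSG00000027947, chromosome 3, 89864059 to 89913196) had 631, 579 and 617 normalized counts in WT vehicle, 566, 588 and 636 in libraries labelled Pear1-/- vehicle, 939.6, 915 and 869.6 in WT bleo, and 552, 577 and 601 in libraries labelled Pear1-/- bleo. The WT bleo libraries lay above all others, and the other 3 groups overlapped. With bleo the log2 fold change was 0.59 in WT (SE 0.0715, adjusted p = 7.50e-07), against -0.04 in libraries labelled Pear1-/- (SE 0.0720, adjusted p = 0.604), and -0.67 between the bleo groups (SE 0.0710, adjusted p = 2.93e-07). Ptprc moved the same way, and per 1000 counts of Ptprc there were 188 ± 32.4 Il6ra counts in WT vehicle, 157 ± 20.8 in libraries labelled Pear1-/- vehicle, 119 ± 4.39 in WT bleo and 172 ± 9.90 in libraries labelled Pear1-/- bleo (SD, n = 3). On that scale WT bleo was the lowest group, below WT vehicle. Per 1000 counts of Pdgfra WT bleo was the highest, with 134 ± 3.93 in WT vehicle, 143 ± 9.63 in libraries labelled Pear1-/- vehicle, 668 ± 38.9 in WT bleo and 241 ± 10.4 in libraries labelled Pear1-/- bleo (SD, n = 3). The antisense gene Gm42809 shares 242 exonic bases with Il6ra, and its reads, at most 52 in a library, cannot be told apart from those of Il6ra over that stretch.

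In normalized counts, Osmr and Lifr, the signalling partners of gp130, went opposite ways between the bleo groups. Osmr (ENSMUSG00000022146, chromosome 15, 6813577 to 6874969) had 1220.0, 1183 and 1260.4 normalized counts in WT vehicle, 1128, 1100.2 and 1090.2 in libraries labelled Pear1-/- vehicle, 792, 828 and 774 in WT bleo, and 1335, 1277 and 1293 in libraries labelled Pear1-/- bleo. WT bleo was the lowest group and the libraries labelled Pear1-/- bleo the highest. Per 1000 counts of Pdgfra the mean was highest in WT bleo, with 587 ± 31.7 Osmr counts, and 544 ± 9.64 in libraries labelled Pear1-/- bleo. It was 268 ± 14.0 in WT vehicle and 266 ± 4.60 in libraries labelled Pear1-/- vehicle (SD, n = 3). Per 1000 counts of Ptprc it was 105 in WT bleo and 387 in libraries labelled Pear1-/- bleo. The log2 fold change with bleo was -0.60 in WT (SE 0.0650, adjusted p = 1.56e-07) and 0.24 in libraries labelled Pear1-/- (SE 0.0642, adjusted p = 0.00331), and 0.69 between the bleo groups (SE 0.0646, adjusted p = 5.29e-08). The rise in the libraries labelled Pear1-/- was lost without their bleo replicate 1 (0.20, adjusted p = 0.0520) and when scaled from genes with a mean log2 CPM of 5 or more (0.13, adjusted p = 0.109).

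Lifr (ENSMUSG00000054263, chromosome 15, 7090614 to 7197489) had 668, 596 and 738 normalized counts in WT vehicle, 730.1, 737 and 653 in libraries labelled Pear1-/- vehicle, 813, 728 and 763 in WT bleo, and 518, 573 and 568 in libraries labelled Pear1-/- bleo. The libraries labelled Pear1-/- bleo lay below all others, and the other groups overlapped. Its log2 fold change was -0.35 with bleo in libraries labelled Pear1-/- (SE 0.0849, adjusted p = 0.00150) and -0.49 between the bleo groups (SE 0.0846, adjusted p = 0.000102). In WT it was 0.22 (SE 0.0847, adjusted p = 0.0312), with overlapping groups, and it was lost without WT bleo replicate 1 (adjusted p = 0.0607). It was 0.11 when scaled by library totals (adjusted p = 0.355) and 0.02 when scaled from genes with a mean log2 CPM of 5 or more (adjusted p = 0.836). The call was kept under 8 of 16 alternatives and was lost with DESeq2 (adjusted p = 0.0546) and limma (adjusted p = 0.0707).

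Il6st, the chain that IL-6, IL-11, LIF and oncostatin M share, fell with bleo in both genotypes. Il6st (ENSMUSG00000021756, chromosome 13, 112464070 to 112510086) had 2895, 2966 and 2916 normalized counts in WT vehicle, 3092, 3153 and 3102 in libraries labelled Pear1-/- vehicle, 1297, 1349 and 1306 in WT bleo, and 1766, 1707 and 1824 in libraries labelled Pear1-/- bleo. None of the groups overlapped. Bleo gave a log2 fold change of -1.14 in WT (SE 0.0616, adjusted p = 7.00e-12) and -0.82 in libraries labelled Pear1-/- (SE 0.0612, adjusted p = 1.38e-09), and Il6st differed by 0.41 between the bleo groups (SE 0.0617, adjusted p = 2.18e-05). The difference between the bleo effects, given with the interaction below, lost its call under 9 of 21 alternatives. Pdgfra, the sorting marker, was also lower in WT bleo, with 1360.1 ± 29.9 in WT bleo and 2392 ± 18.8 in libraries labelled Pear1-/- bleo (SD, n = 3). Per 1000 counts of Pdgfra, Il6st had 969 ± 36.3 counts in WT bleo and 738 ± 19.8 in libraries labelled Pear1-/- bleo, the opposite order. It had 643 ± 55.8 in WT vehicle and 748 ± 5.24 in libraries labelled Pear1-/- vehicle, so on that scale it did not fall in WT.

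Socs3, the feedback inhibitor that STAT3 induces, was called with bleo in WT, where the value turned on 1 library, and in no other comparison of 2 groups. Socs3 (ENSMUSG00000053113, chromosome 11, 117966079 to 117970047) had 5831, 9820.3 and 5715 normalized counts in WT vehicle, 9923, 9785 and 10061 in libraries labelled Pear1-/- vehicle, 10399, 9904 and 10099.6 in WT bleo, and 9239, 9684 and 9402 in libraries labelled Pear1-/- bleo. All libraries lay near each other but WT vehicle replicates 1 and 3, which were lower. Its log2 fold change with bleo was 0.52 in WT (SE 0.169, adjusted p = 0.0196) and -0.07 in libraries labelled Pear1-/- (SE 0.169, adjusted p = 0.746), and -0.12 between the bleo groups (SE 0.169, adjusted p = 0.616). The WT value was 0.89 without WT vehicle replicate 2 (adjusted p = 4.76e-23) and 0.06 with that library as the only WT vehicle library (adjusted p = 0.370), and the call was also lost without WT vehicle replicate 1 (0.40, adjusted p = 0.0557) or 3 (0.39, adjusted p = 0.0556). The neutrophil marker sum moved with the vehicle libraries in the same way, with 4528, 15550 and 4449 normalized counts in WT vehicle and 14505 to 18328 in the libraries labelled Pear1-/- vehicle, but was 1495 to 1618 in WT bleo, where Socs3 was as high, and its part in this result was not tested. With only the 6 bleo libraries in the fit, the difference of -0.11 between them was called (adjusted p = 1.51e-05).

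**Figure D3:**
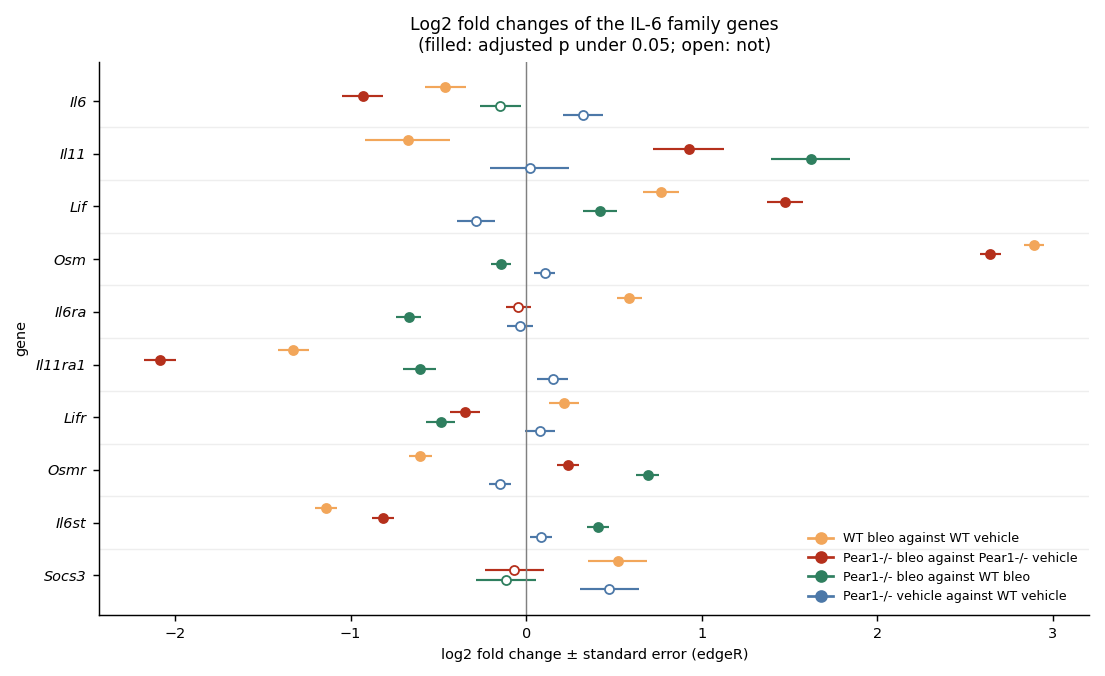
Log2 fold changes (x axis) with their standard errors (bars) of the 10 genes (y axis) in 4 comparisons, from edgeR on 3 libraries a group; filled points have adjusted p under 0.05 and open points do not. Osm is far right in both bleo comparisons, Il11, Osmr and Lifr have called bleo effects of opposite sign in the 2 genotypes, and all points between the vehicle groups are open.

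The interaction of the genotype label and bleo compared the bleo effect in the libraries labelled Pear1-/- with that in WT. It was called for 9 of the 10 genes, 4 higher and 5 lower, where 37.1% of all genes were called (17.8% higher and 19.3% lower), and for 1 past a fold change of 2 (15.5% of all genes). Il11 had the largest value, 1.60 on the log2 scale (SE 0.317, adjusted p = 0.000566), and Osmr the smallest adjusted p, at 0.84 (SE 0.0913, adjusted p = 9.04e-07). Lif was 0.71 higher (adjusted p = 0.000862) and Il6st 0.32 higher (adjusted p = 0.00651). The bleo effect in the libraries labelled Pear1-/- was the lower for Il11ra1 (-0.76, adjusted p = 0.000125), Il6ra (-0.63, adjusted p = 7.79e-05) and Lifr (-0.56, adjusted p = 0.00113). It was also lower for Il6 (-0.47, adjusted p = 0.0339) and Osm (-0.25, adjusted p = 0.0234), and for Socs3 it was -0.59 without a call (SE 0.239, adjusted p = 0.0809). Ptprc had an interaction of -1.40 (adjusted p = 3.80e-08) and Pdgfra of 0.94 (adjusted p = 2.96e-07). With library totals the interaction of Osm was -0.10 (adjusted p = 0.367) and that of Il6 -0.33 (adjusted p = 0.0564), and limma called neither (0.0539 and 0.0614). The call of Osm was also lost when scaled from the abundant genes (0.0774) and without a filter on low counts (0.0768), that of Il6st without a filter (0.295), and Socs3 was called with library totals (0.0404), DESeq2 (0.0184) and limma (0.0439). Leaving out 1 library lost the interaction call of Il6 (adjusted p up to 0.0920) for WT vehicle replicates 1 and 3, Pear1-/- vehicle replicates 1 and 2, each WT bleo library and Pear1-/- bleo replicates 1 and 2. It lost that of Osm (up to 0.0564) for WT bleo replicates 1 and 3 and Pear1-/- bleo replicates 2 and 3, and that of Il6st (up to 0.118) for Pear1-/- vehicle replicates 1 and 2 and each of the 6 bleo libraries. The value of Il6 was -0.75 without WT vehicle replicate 2 and -0.13 with it alone (adjusted p = 0.331), and that of Socs3 was -0.97 (adjusted p = 5.70e-19) and -0.11 (adjusted p = 0.235). Without WT vehicle replicate 2 all 10 genes were called (46.4% of all genes), and with it as the only WT vehicle library 8 were (33.2%).

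Between the vehicle groups edgeR called 0 of the 10 genes, where 7.24% of all genes tested were called (1.95% higher and 5.29% lower) and 3.32% with a fold change of 2. At an unadjusted p under 0.05 there were 4 of the 10 and 31.4% of all genes. DESeq2 called 1, Socs3 (0.48, adjusted p = 0.0260), and 8.58% of all genes, and limma called 0 and 1.04%. Without WT vehicle replicate 2, edgeR called 55.3% of all genes tested and 6 of the 10: Socs3 (0.85), Il6 (0.59), Il11ra1 (0.35), Osm (0.20) and Il6st (0.17) were higher and Lif (-0.34) was lower in the libraries labelled Pear1-/- vehicle. Leaving out any other 1 of the 6 vehicle libraries gave 0 of the 10 and 0% of all genes. The labels were kept as deposited.

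The order of the genes by level was compared per kilobase (kb) of exon, as normalized counts divided by exonic length (GENCODE M21, GRCm38). In WT vehicle Socs3 was the highest with 2464 per kb, followed by Il6 with 770.2, Osm with 499, Il11ra1 with 287, Il6st with 264 and Osmr with 101. Il6ra (70.5), Lifr (61.9) and Lif (60.7) came next and Il11 last (14.9). The ranges of the 3 libraries overlapped between Il11ra1 and Il6st and between the neighbours Il6ra, Lifr and Lif, and no other neighbours overlapped. The libraries labelled Pear1-/- vehicle had the same order. In WT bleo Osm came first with 3678 per kb, above Socs3 with 3506 and Il6 with 555, and Lif moved up to 102, level with Il6ra at 105, while Osmr moved down to 65.9 and overlapped Lifr. In libraries labelled Pear1-/- bleo Osm (3360) and Socs3 (3266) overlapped at the top, Lif (138) stood above Osmr (107), and Il11 stayed last at 28.9. In bleo the cytokine gene Osm thus stood first and its receptor gene Osmr in the lower part of the order, in cells sorted for Pdgfra that also carried myeloid transcripts.

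**Figure D4:**
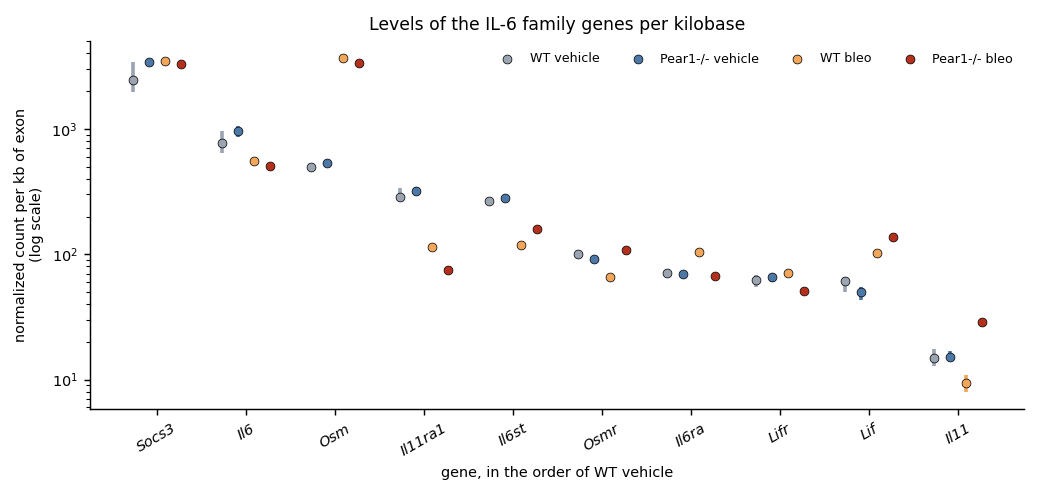
Mean normalized counts per kb of exon (y axis, log scale) of the 10 genes (x axis, in the order of WT vehicle) in the 4 groups; points are means of 3 libraries and vertical lines the lowest to highest library. Osm joins Socs3 at the top in bleo, and Il11 is lowest in every group.

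The other genes of the pathway were read from 5 lists, of which 57 of 61 genes were tested. The cytokine genes Cntf, Ctf2 and Il31 and the receptor copy Il11ra2 did not pass the filter on low counts. With bleo 30 of the 57 rose and 11 fell in WT, where 31.4% of all genes tested rose and 36.5% fell. In the libraries labelled Pear1-/- 19 rose and 14 fell (29.1% and 33.1% of all genes), 24 and 14 when scaled by library totals (31.6% and 30.5%), and 17 and 18 when scaled from genes with a mean log2 CPM of 5 or more (24.1% and 38.5%). Between the genotypes in bleo, 16 were higher and 22 lower in the libraries labelled Pear1-/- (22.1% and 24% of all genes). The counts of each list below are to be read against these shares. The medians of the 57 in these 3 comparisons were 0.35, 0.06 and -0.18 on the log2 scale.

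Among the remaining ligands and receptors of the family, 8 of 12 genes were tested, and 3 rose and 2 fell with bleo in WT, 1 rose and 2 fell in libraries labelled Pear1-/-. Clcf1, a cytokine gene that acts through the ciliary neurotrophic factor receptor, rose with bleo in WT by 0.85 (adjusted p = 2.42e-05) and was lower in bleo libraries labelled Pear1-/- than in WT ones (-0.44, adjusted p = 0.00984), a call lost without WT bleo replicate 3 (adjusted p = 0.0555). Ebi3, a subunit shared by IL-27 and IL-35, rose by 1.81 with bleo in WT (adjusted p = 3.36e-07) and was lower in bleo libraries labelled Pear1-/- than in WT ones (-1.24, adjusted p = 2.33e-05). Cntfr, the receptor chain for ciliary neurotrophic factor, fell, with log2 fold changes of -2.90 in WT (adjusted p = 0.000146) and -2.41 in libraries labelled Pear1-/- (adjusted p = 0.000130). Ctf1, the gene of cardiotrophin, was higher in bleo libraries labelled Pear1-/- than in WT ones (0.85, adjusted p = 0.0235), but not without WT bleo replicate 1 (adjusted p = 0.0677) or 2 (0.126) or Pear1-/- bleo replicate 1 (0.0525) or 2 (0.158).

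Of the 10 signal carriers, 4 rose and 3 fell with bleo in WT, 2 rose and 3 fell in libraries labelled Pear1-/-, and 2 were higher and 5 lower in bleo libraries labelled Pear1-/- than in WT ones. Stat3 had 2264, 2509 and 2086 normalized counts in WT vehicle, 2564, 2563 and 2668 in libraries labelled Pear1-/- vehicle, 2108, 2135 and 2077 in WT bleo and 2782, 2915 and 2787 in libraries labelled Pear1-/- bleo. The bleo groups did not overlap, and the log2 fold change between them was 0.41 (SE 0.0697, adjusted p = 7.82e-05), while the bleo effects were -0.11 in WT (adjusted p = 0.185) and 0.13 in libraries labelled Pear1-/- (adjusted p = 0.122). The kinase genes did not move together: Jak2 rose with bleo by 1.08 in WT (adjusted p = 1.65e-08) and 0.76 in libraries labelled Pear1-/- (adjusted p = 2.20e-06), and Jak1 fell (-0.30, adjusted p = 0.000655, and -0.52, adjusted p = 2.30e-06). Tyk2 rose by 0.54 in WT (adjusted p = 6.31e-05), with 0.13 in libraries labelled Pear1-/- (adjusted p = 0.252), and its interaction was called (-0.41, adjusted p = 0.0218). Stat5b fell in both genotypes (-0.89, adjusted p = 1.87e-08, and -1.30, adjusted p = 1.14e-10). Grb2, an adaptor of many receptors that is abundant in leukocytes, rose by 2.29 in WT (adjusted p = 1.20e-14) and by 0.64 in libraries labelled Pear1-/- (adjusted p = 2.05e-06).

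Of the 11 other inhibitors of JAK-STAT signalling, 6 rose and 2 fell with bleo in WT and 2 rose and 2 fell in libraries labelled Pear1-/-. Ptpn6, a phosphatase of blood cells, rose by 2.35 in WT (adjusted p = 3.15e-07) and by 0.82 in libraries labelled Pear1-/- (adjusted p = 0.00142), and was lower in bleo libraries labelled Pear1-/- than in WT ones (-0.96, adjusted p = 0.000681). Socs2, an inhibitor of growth hormone signalling, fell by 0.44 with bleo in WT (adjusted p = 0.000120) and was higher in bleo libraries labelled Pear1-/- than in WT ones (0.50, adjusted p = 6.37e-05). Pias1 was lower there (-0.47, adjusted p = 0.000342) and Pias3, an inhibitor of STAT3, higher (0.36, adjusted p = 0.00274).

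Of the 24 genes known to respond to STAT3, 15 rose and 3 fell with bleo in WT (31.4% and 36.5% of all genes), 12 rose and 6 fell in libraries labelled Pear1-/- (29.1% and 33.1%), and 9 were higher and 9 lower in bleo libraries labelled Pear1-/- than in WT ones, with a median of 0.04 against -0.01 over all genes. Timp1, an inhibitor of matrix metalloproteinases, had 1224, 1175 and 1243 normalized counts in WT bleo and 3411, 3421 and 3498 in libraries labelled Pear1-/- bleo, against 319 to 432 in the vehicle libraries. Its log2 fold change between the bleo groups was 1.49 (SE 0.0784, adjusted p = 2.50e-11). Saa3, a serum amyloid, was higher by 1.38 there (adjusted p = 1.06e-06) and Hp, haptoglobin, by 0.95 (adjusted p = 0.00137). Cebpb, a transcription factor of macrophages, had 374, 380.4 and 434 normalized counts in WT bleo and 124, 92.0 and 108 in libraries labelled Pear1-/- bleo (log2 fold change -1.89, SE 0.122, adjusted p = 3.05e-10). Mcl1, a survival factor, differed by -1.14 (adjusted p = 1.99e-09) and Bcl6 by -0.80 (adjusted p = 1.37e-06). Other pathways induce most of these genes too. Between the bleo groups the myeloid markers moved in the direction of Cebpb and Mcl1. With bleo, Cebpb averaged 396 normalized counts against 169 with vehicle in WT, and 108 against 209 in libraries labelled Pear1-/-. Its fall there (log2 fold change -0.94, adjusted p = 3.38e-06) was opposite to the rise of 11 of the 12 myeloid markers. The part of the myeloid markers in these results was not tested.

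Of 4 genes of the sheddases that release the IL-6 receptor from the cell surface, 2 rose and 1 fell with bleo in each genotype. Adam10 rose by 1.16 in WT (adjusted p = 1.97e-09) and 1.01 in libraries labelled Pear1-/- (adjusted p = 1.94e-08), and Adam17 by 0.94 (adjusted p = 2.63e-10) and 0.50 (adjusted p = 2.27e-06). Rhbdf1, which helps ADAM17 to the surface, fell (-0.79, adjusted p = 4.95e-07, and -0.69, adjusted p = 2.16e-06), and Rhbdf2 was not called in either genotype. Adam17 was lower in bleo libraries labelled Pear1-/- than in WT ones (-0.46, adjusted p = 8.32e-06), as Il6ra was.

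Between the vehicle groups 3 of the 57 pathway genes were higher and 1 lower in the libraries labelled Pear1-/-, where 7.24% of all genes were called. They were Icam1 (0.29, adjusted p = 0.0428), Mcl1 (0.30, adjusted p = 0.0437), Serpina3n (0.27, adjusted p just under 0.05) and Il27 (-2.96, adjusted p = 0.0408), of which Mcl1 and Il27 were named after their values were seen. The calls of Icam1 and Mcl1 were each lost under 11 and that of Serpina3n under 13 of 16 alternatives, and that of Il27 under 7 of the 14 in which it was tested. All 4 were lost with limma and on leaving out WT vehicle replicate 1 or 3 or any 1 of the libraries labelled Pear1-/- vehicle. Without WT vehicle replicate 2 there were 44 calls (55.3% of all genes). Il27, a cytokine gene, did not exceed 25.2 normalized counts in any of these libraries. Scaled by library totals alone, 2 were higher and 3 lower (0.798% and 11.8% of all genes), and scaled from genes with a mean log2 CPM of 5 or more, 1 and 2 (1.2% and 9%). The interaction was called for 8 higher and 21 lower pathway genes (17.8% and 19.3% of all genes), for 16 and 15 when scaled by totals (23.4% and 14.4%) and for 13 and 20 when scaled from the abundant genes (20.3% and 16.9%).

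**Figure D5:**
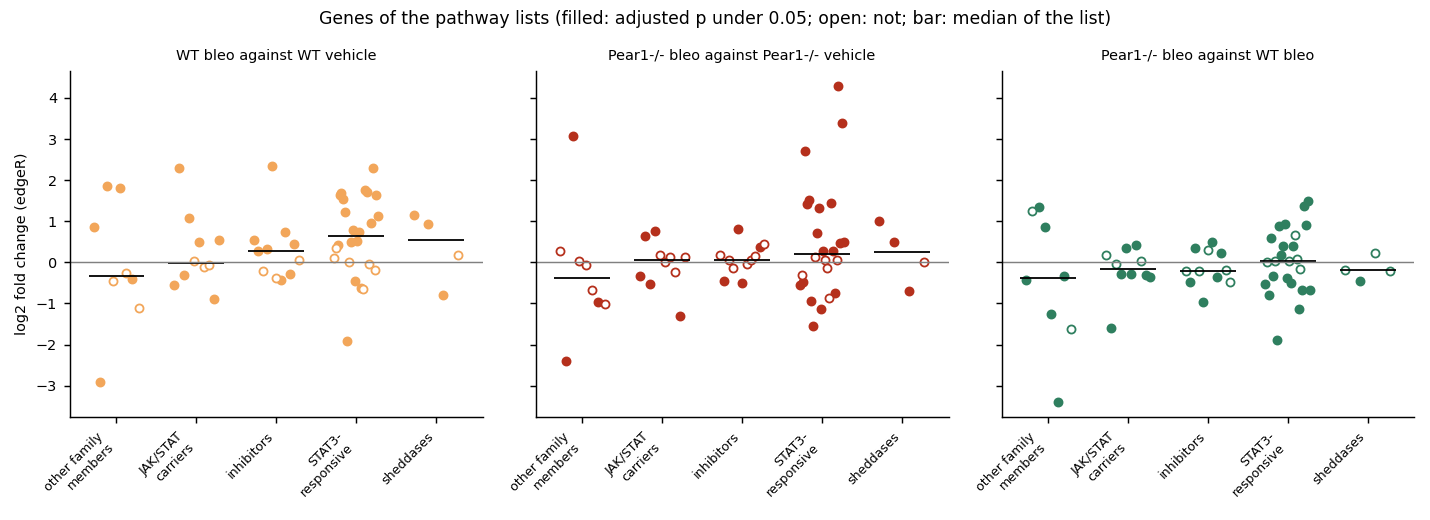
Log2 fold changes (y axis) of the 57 tested genes of the 5 pathway lists (x axis) in 3 comparisons (panels); filled points have adjusted p under 0.05, open points do not, and bars are list medians. Genes known to respond to STAT3 spread widely on both sides of 0 between the bleo groups.

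For the 9 genes whose log2 CPM averaged 3 or more, which left out Il11, the genes most alike over the 12 libraries were sought by Pearson's r of log2 CPM. The 12 libraries share the 4 groups, and WT vehicle replicate 2 stands apart in its group, so r over all 12 and r within groups (after each group's mean was taken off) differ in what they show. Osm was most like Ccl17 (r = 0.998), a chemokine gene of dendritic cells and macrophages, and Tmem14c (r = 0.996), with 0.233 and -0.141 within groups. Lif was most like the matrix gene Tnc (r = 0.993) and Kif26b (r = 0.992), Il11ra1 like Cbr2 (r = 0.998) and Meg3 (r = 0.997), and Il6st like Tgfbr3 (r = 0.998) and Nr1d2 (r = 0.997). Il6 was most like Fam107b (r = 0.990) and Stk17b (r = 0.985), Il6ra like Znrf2 (r = 0.987) and Wdr81 (r = 0.981), Lifr like Camsap2 (r = 0.923) and Maff (r = 0.922), and Osmr like Figf (r = 0.989) and the immunoglobulin segment Ighv1-31 (r = 0.985). Socs3 was most like Rpl9 (r = 0.986) and the immunoglobulin segment Igkv4-70 (r = 0.978), with 0.979 and 0.987 within groups. For the other 7 genes r within groups lay from 0.486 (Il6st with Tgfbr3) to 0.965 (Il6 with Stk17b). Among the members themselves, Lif and Il11ra1 were the most opposed (r = -0.980), and Il6st and Osm had r = -0.964.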

How the data were processed

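Cd140a+ lung cells from 4 groups of 3 libraries were profiled by RNA-seq with SMART-Seq cDNA, which keeps no strand. Per the study's methods, reads were aligned to GRCm38 with HISAT2 version 2.1. The authors deposited raw counts per gene, and a table of signal values, which are the counts divided by a size factor per library. The counts were tested with edgeR 4.0.16 in R 4.3.3 (TMM scaling, filterByExpr, robust quasi-likelihood, 1 mean per group, all 12 libraries, Benjamini-Hochberg adjustment over 17418 genes). DESeq2 1.42.0, limma 3.58.1 on variance-stabilized counts as in the study, other scalings and filters, a replicate block and leaving out each library were alternatives. The scripts were tested on simulated data. The genes and lists were chosen with earlier results of these data known. From each pathway list and comparison the text drew on the 3 largest rises and 3 largest falls with adjusted p under 0.05, no overlap and a mean log2 CPM of at least 1, plus Jak1, Jak2, Tyk2 and Stat3; some genes that the rule names are not reported here. Promoters are RefSeq's.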

Additional observations from a re-analysis of the deposited data

Results flagged for a closer look

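The effect of bleo differed between the genotype labels for 9 of the 10 genes by edgeR's test of the interaction, each flagged by that test. As the log2 effect in the libraries labelled Pear1-/- minus that in WT, the values were Il11 1.60, Osmr 0.84, Lif 0.71 and Il6st 0.32, and Il11ra1 -0.76, Il6ra -0.63, Lifr -0.56, Il6 -0.47 and Osm -0.25. The bleo effects of Il11, Osmr and Lifr were called with opposite signs in the 2 genotypes, but the rise of Lifr in WT lost its call under 8 of 16 alternatives, the fall of Il11 in WT lost its call under 5 of 16 alternatives and the rise of Osmr in the libraries labelled Pear1-/- under 2 of 15. For Il11, the values were 0.92 in the libraries labelled Pear1-/- and -0.67 in WT, for Osmr 0.24 and -0.60, and for Lifr -0.35 and 0.22. Per 1000 counts of Pdgfra, the mean of each of these genes was higher with bleo than with vehicle in each genotype.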

How the results depend on the processing

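Each comparison of 2 groups was recomputed under 15 or 16 alternatives and the interaction under 21. Of these, using WT vehicle replicate 2 alone and scaling from genes with a mean log2 CPM of 5 or more were chosen after seeing the data. Of 830 values of the 10 genes, 734 kept their direction and call, 58 lost the call, 18 gained it and 20 changed sign, none of the last with a call in the 12-library fit. For the pathway only the 90 pairs of gene and comparison chosen for being called were followed, which leaves no call to gain, and of their 1491 values 1386 kept both, 105 lost the call and 0 changed sign. The interactions of Il11, Lif, Il6ra, Il11ra1, Lifr and Osmr kept direction and call under all 21 alternatives run for them.

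Between the vehicle groups, where edgeR called 0 of the 10 genes, library totals gave 2 (12.6% of all genes), no filter on low counts 1 (13.9%), scaling from the abundant genes 2 (10.2%), DESeq2 1 (8.58%), and leaving out 1 library 0 to 6 (0% to 55.3%). For the pathway genes (4 called) the counts were 24 without a filter, 1 with the stricter filter (5.34% of all genes), 0 with only those 6 libraries (0%), 0 with WT vehicle replicate 2 alone (0%), 10 with DESeq2, 0 with limma (1.04%) and 0 to 44 when leaving out 1 library. WT vehicle replicate 2 alone is 1 library against 3, with the spread taken from the other groups. The signs that changed there were, on the log2 scale, those of Il11 (0.02) to -0.12 with totals, -0.0086 with the stricter filter, -0.20 with replicate 2 alone, -0.068 with the abundant genes and -0.0721 to 0.24 when leaving out 1 library. Il6ra (-0.03) went to 0.0638 without a filter, 0.0396 with replicate 2 alone and -0.0392 to 0.0551 when leaving out 1 library. Library totals gave -0.0443 for Osm, -0.0658 for Il6st and -0.0773 for Lifr, the abundant genes -0.0116 for Il6st and -0.0221 for Lifr, and replicate 2 alone -0.0747 for Il11ra1. In the libraries labelled Pear1-/-, the bleo effect of Il6ra (-0.04) went to 0.0112 with totals and 0.0067 without a filter. The cause of these changes was not tested. Library totals moved the median of all genes by -0.15 between the vehicle groups and by 0.15 in the interaction, and the abundant genes moved it by -0.19 (bleo in WT) and -0.11 (bleo in libraries labelled Pear1-/-).

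Same-numbered libraries of different groups did not deviate together (18 pairs, r between -0.161 and 0.0997), so the numbers were not taken as pairs. With the replicate block, 10, 8, 7, 0 and 9 of the 10 genes were called (bleo in WT, bleo in libraries labelled Pear1-/-, genotypes in bleo, genotypes in vehicle, interaction), and 42, 33, 38, 5 and 29 of the pathway genes. Of all genes, 67.1%, 61.5%, 44.9%, 7.21% and 35.8% were called in the same fit. The gene lost under the block was Osm (adjusted p = 0.0747). At 3 libraries a group, a difference that was not called may still exist, and 3 counts set the floor for genes such as Il11.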
